A study of Oryza sativa with 12 samples.

Results

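The 10 rice genes described here encode enzymes and enzyme subunits of chlorophyll synthesis. Chosen by gene identifier, with earlier results of these data known, they are 10 of the 40674 genes listed in the deposited table. They are uroporphyrinogen decarboxylase (UROD), the I, D and H subunits of magnesium chelatase (CHLI, CHLD and CHLH), the cyclase component CRD1, divinyl reductase (DVR), the protochlorophyllide oxidoreductases PORA and PORB, chlorophyll synthase (YGL1) and chlorophyllide a oxygenase (CAO1). RNA sequencing of aerial organs of 12-day-old rice seedlings (Oryza sativa) gave 12 libraries in 4 groups of 3. The groups were NIL-TT2HPS32 kept at 42.5 °C for 20 h, NIL-TT2HPS32 at 28 °C, NIL-TT2HJX kept at 42.5 °C for 20 h and NIL-TT2HJX at 28 °C. All plants had been grown at 28 °C. The labels give the genotype of NIL-TT2HPS32 (HPS32 below) as loss-of-function TT2 and that of NIL-TT2HJX (HJX below) as wild type. A near-isogenic line carries a chromosome segment of a donor in a common background, so each line stands for its introgressed segment as well as for TT2, the gene of a G protein gamma subunit.

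Chlorophyll is made in plastids from the tetrapyrrole pathway, which also supplies heme. After the branch point, magnesium chelatase inserts magnesium into protoporphyrin IX, a cyclase closes the isocyclic ring, the light-dependent protochlorophyllide oxidoreductases form chlorophyllide, and chlorophyll synthase attaches the phytol tail. In greening leaves the pathway is regulated closely, because free intermediates are photoreactive. Chlorophyllide a oxygenase supplies chlorophyll b, which is bound mainly by the light-harvesting proteins.

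Assigned reads per library numbered 14785975 to 17871972, and 25473 genes passed the filter on low counts, among them all 10 chlorophyll synthesis genes. The lowest count of any of the 10 in any library was 416 reads. TT2 itself (Os03g0407400, chromosome 3, 16729501 to 16735109) had 16 reads over the 3 HPS32 heat libraries and 7 over the HPS32 28 °C libraries, against 8 over the HJX heat libraries and 9 over the HJX 28 °C libraries. It was too low to test, so its counts did not check the genotype labels. The summed level of 4 green leaf markers (2 Rubisco small subunits, Rubisco activase and a light-harvesting protein) was 894 to 1138 CPM (read counts scaled to a common library size with TMM) in HPS32 heat libraries against 26188 to 26924 CPM in HPS32 28 °C libraries. It was 544 to 675 CPM in HJX heat libraries against 23710 to 30647 CPM in HJX 28 °C libraries. The 3 root markers summed to at most 13.5 CPM in any library, with the nitrate transporter NRT2.1 at 0 throughout and the silicon transporter LSI2 at 0 in HPS32 at 28 °C. The 2 meristem markers summed to 0 to 0.266 CPM in HPS32 heat, 0 to 0.0732 CPM in HPS32 at 28 °C, 0 to 0.119 CPM in HJX heat and 1.73 to 4.11 CPM in HJX at 28 °C, with OSH15 at 0 in HPS32 at 28 °C. The 2 seed markers summed to 2.99 to 3.62 CPM in HPS32 heat, 1.27 to 2.56 CPM in HPS32 at 28 °C, 8.96 to 12.1 CPM in HJX heat and 0.946 to 2.53 CPM in HJX at 28 °C, with glutelin B at 0 throughout. The green leaf markers thus fell together with the genes below, and their part in the results was not tested. In such bulk samples, fewer cells of a type and less RNA per cell cannot be told apart.

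Of the 10 genes, 5 lie on chromosome 3, which also carries TT2. In the coordinates of the deposited table, whose genome build is not given in the sources used here, these are CHLH (Os03g0323200, 11712280 to 11719587, plus strand), UROD (Os03g0337600, 12529090 to 12532682, plus strand), DVR (Os03g0351200, 13155851 to 13157256, minus strand), CHLI (Os03g0563300, 20248326 to 20250000, minus strand) and CHLD (Os03g0811100, 33955293 to 33961962, plus strand). Their distances to TT2 were 3.51 Mb for CHLI, 3.57 Mb for DVR, 4.20 Mb for UROD, 5.01 Mb for CHLH and 17.2 Mb for CHLD. The other 5 are CRD1 (Os01g0279100, chromosome 1, 9874379 to 9876678, plus strand), PORA (Os04g0678700, chromosome 4, 34663055 to 34664559, plus strand), YGL1 (Os05g0349700, chromosome 5, 16512069 to 16517848, plus strand), PORB (Os10g0496900, chromosome 10, 18900290 to 18904022, plus strand) and CAO1 (Os10g0567400, chromosome 10, 22482882 to 22486431, minus strand). None of the 10 overlaps another listed gene. Each carries a protein domain that fits its name in the deposited description, such as the CobN and magnesium chelatase domain of CHLH and the Rieske domain of CAO1.

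Levels were compared between genes in CPM per kilobase of the deposited gene length (CPM/kb). PORA had the highest mean level in every group, with 547 ± 101 CPM/kb in HPS32 heat, 1435 ± 105 CPM/kb in HPS32 at 28 °C, 159 ± 79.0 CPM/kb in HJX heat and 1179 ± 112 CPM/kb in HJX at 28 °C (SD, n = 3 each). CRD1 was next in each group, with 266 ± 18.0 CPM/kb in HPS32 heat, 1058 ± 41.7 CPM/kb in HPS32 at 28 °C, 119 ± 28.4 CPM/kb in HJX heat and 962 ± 133 CPM/kb in HJX at 28 °C (SD, n = 3 each). CHLH was the third in each group, and CHLD was the lowest, at 25.9 ± 1.11 CPM/kb in HPS32 heat, 72.3 ± 2.33 CPM/kb in HPS32 at 28 °C, 13.7 ± 2.01 CPM/kb in HJX heat and 67.3 ± 2.36 CPM/kb in HJX at 28 °C (SD, n = 3 each). The order in between differed with temperature. At 28 °C both lines ran PORB, CHLI, UROD and CAO1 below CHLH, whereas under heat CAO1 followed CHLH in both lines.

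Some neighbours in the order could not be separated by their libraries. In HPS32 heat, the 3 libraries of PORB and CHLI overlapped, as did those of YGL1 and CHLD. In HPS32 at 28 °C, CHLI overlapped with UROD, DVR with YGL1, and YGL1 with CHLD. In HJX heat, PORA overlapped with CRD1, CRD1 with CHLH, CHLI with PORB, PORB with UROD, and YGL1 with CHLD. In HJX at 28 °C, PORA overlapped with CRD1, PORB with CHLI, CHLI with UROD, UROD with CAO1, YGL1 with DVR, and DVR with CHLD. The summed level of the 10 genes was 1235 ± 104 CPM/kb in HPS32 heat and 4299.9 ± 145 CPM/kb in HPS32 at 28 °C, against 641 ± 130.2 CPM/kb in HJX heat and 3845 ± 402 CPM/kb in HJX at 28 °C (SD, n = 3 each). PORA made up 44.0 ± 4.86% of that sum in HPS32 heat and 33.3 ± 1.38% in HPS32 at 28 °C, against 23.8 ± 6.72% in HJX heat and 30.7 ± 1.42% in HJX at 28 °C (SD, n = 3 each).

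**Figure D1:**
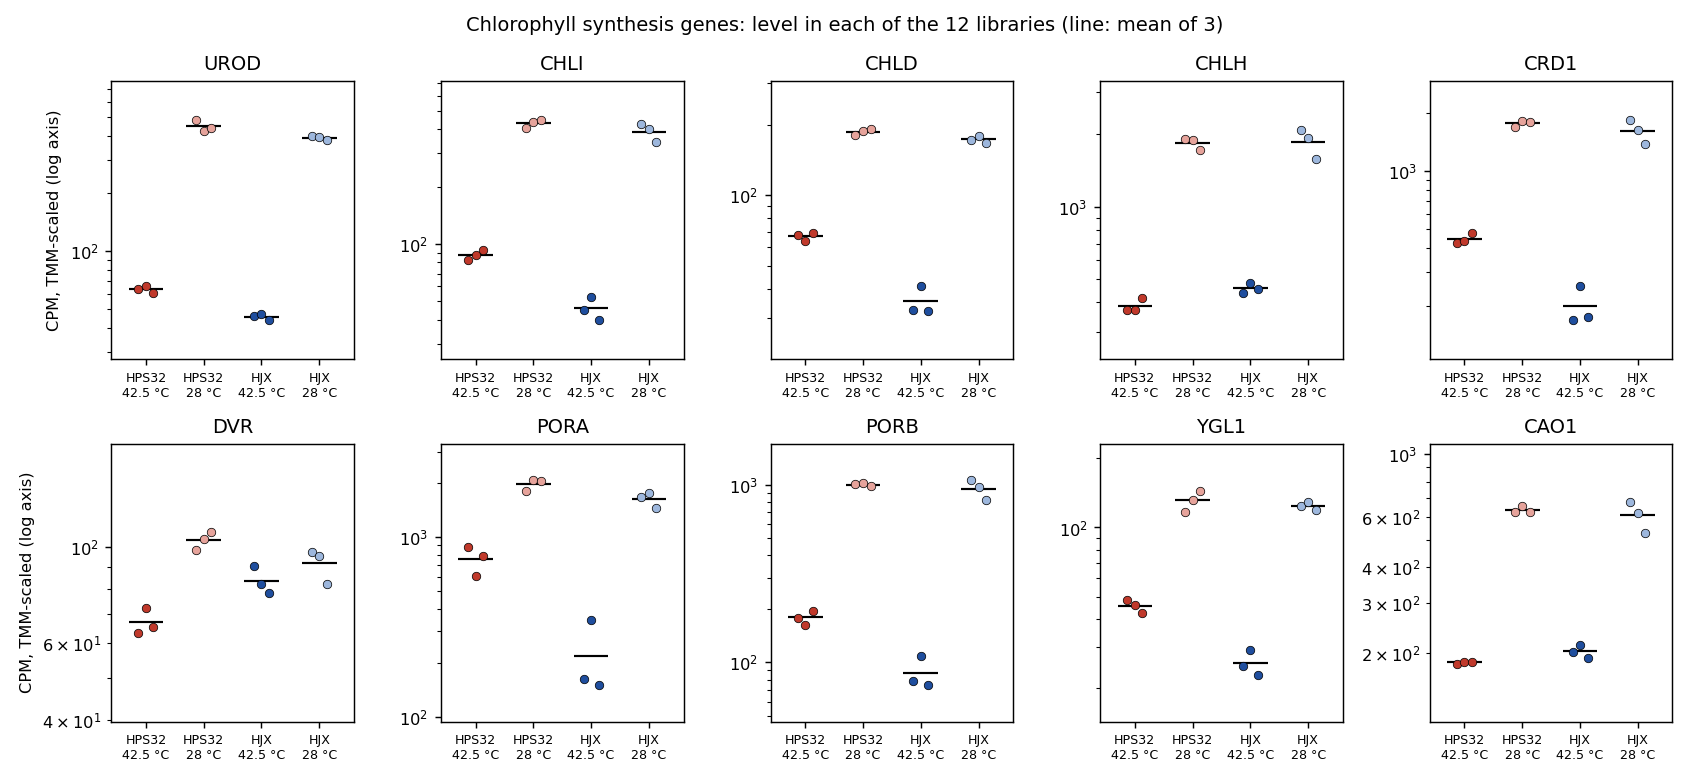
Level of each gene in each of the 12 libraries, in TMM-scaled CPM on a log axis, with one point per library and a line at the mean of 3. The 3 heat libraries lie below the 3 libraries at 28 °C of the same line in every panel except DVR in HJX. Of all tested genes, 74.0% did not overlap between heat and 28 °C in HPS32 and 77.3% in HJX, in either direction. The PORA points of HJX heat spread widest, at 150 to 346 CPM.

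The first question was what 20 h at 42.5 °C did to these transcripts in each line. All 10 genes fell in HPS32 (edgeR quasi-likelihood test, adjusted p under 0.05), where 36.4% of all tested genes were called lower and 70.4% were called in either direction. Their median log2 fold change, 42.5 °C over 28 °C, was -1.89, against -0.03 over all tested genes. In HJX 9 of the 10 fell, where 36.8% of all tested genes were called lower and 74.9% in either direction, and DVR was not called. The median of the 10 in HJX was -2.60, against 0.03 over all tested genes. Heat and 28 °C libraries did not overlap for 10 of the 10 genes in HPS32 and 9 in HJX. Over all tested genes these shares were 74.0% in HPS32 and 77.3% in HJX, in either direction. With total counts in place of TMM the median of all genes was 0.54 in HPS32 and 0.32 in HJX. This scaling split the calls over all genes into 14369 higher and 5063 lower in HPS32, against 8653 higher and 9272 lower with TMM. In HJX the split was 12238 higher and 7289 lower, against 9698 higher and 9381 lower with TMM. With total counts 9 of the 10 genes still fell in HPS32, all except DVR, and 9 of the 10 in HJX.

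UROD acts before the branch between heme and chlorophyll and takes carboxyl groups off uroporphyrinogen. It stood at 63.3, 66.0 and 60.8 CPM in the HPS32 heat libraries, against 481, 423 and 439 CPM in the HPS32 28 °C libraries. The HJX heat libraries had 45.7, 47.3 and 43.9 CPM, against 397, 393 and 378 CPM in the HJX 28 °C libraries. All heat libraries were far below all 28 °C libraries. Within a line 74.0% of all tested genes did not overlap in HPS32 and 77.3% in HJX, in either direction. The fall of UROD was 7.07-fold in HPS32 (log2 -2.82 ± 0.08 SE, adjusted p = 1.67e-16) and 8.53-fold in HJX (log2 -3.09 ± 0.08 SE, adjusted p = 3.49e-17).

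Magnesium chelatase needs 3 subunits, of which CHLH carries the porphyrin and CHLI and CHLD form the ATPase motor. CHLI had 82.0, 87.3 and 92.9 CPM in HPS32 heat against 407, 437 and 447 CPM in HPS32 at 28 °C, and 45.3, 53.0 and 39.9 CPM in HJX heat against 423, 401 and 341 CPM in HJX at 28 °C. It fell 4.92-fold in HPS32 (log2 -2.30 ± 0.10 SE, adjusted p = 1.76e-13) and 8.44-fold in HJX (log2 -3.08 ± 0.10 SE, adjusted p = 2.61e-15). The heat libraries of the lines did not overlap, with HPS32 higher, where 58.2% of all tested genes did not overlap and 28.5% did so with HPS32 higher. CHLD had 67.8, 63.5 and 69.0 CPM in HPS32 heat against 180, 187 and 191 CPM in HPS32 at 28 °C, and 32.5, 41.2 and 32.1 CPM in HJX heat against 173, 179 and 167 CPM in HJX at 28 °C. It fell 2.79-fold in HPS32 (log2 -1.48 ± 0.08 SE, adjusted p = 7.52e-12) and 4.91-fold in HJX (log2 -2.30 ± 0.09 SE, adjusted p = 1.16e-14). As for CHLI, every HPS32 heat library was above every HJX heat library.

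CHLH, the porphyrin-binding subunit, had 372, 372 and 418 CPM in HPS32 heat against 1906, 1901 and 1715 CPM in HPS32 at 28 °C, and 438, 481 and 454 CPM in HJX heat against 2086, 1940 and 1574 CPM in HJX at 28 °C. It fell 4.75-fold in HPS32 (log2 -2.25 ± 0.10 SE, adjusted p = 3.16e-13) and 4.08-fold in HJX (log2 -2.03 ± 0.10 SE, adjusted p = 8.24e-13). The HPS32 heat libraries lay just below those of HJX heat, without overlap, where 58.2% of all tested genes did not overlap in either direction.

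CRD1 is a component of the cyclase that closes the isocyclic ring. It had 424, 437 and 482 CPM in HPS32 heat against 1703, 1837 and 1808 CPM in HPS32 at 28 °C, and 170, 255 and 175 CPM in HJX heat against 1841, 1632 and 1392 CPM in HJX at 28 °C. It fell 3.98-fold in HPS32 (log2 -1.99 ± 0.14 SE, adjusted p = 3.59e-09) and 8.10-fold in HJX (log2 -3.02 ± 0.15 SE, adjusted p = 2.52e-11). DVR, which reduces a vinyl group of the ring, changed least of the 10 genes in each line. It had 63.3, 72.1 and 65.4 CPM in HPS32 heat against 98.3, 104 and 108 CPM in HPS32 at 28 °C, and 90.2, 82.0 and 78.3 CPM in HJX heat against 97.1, 95.3 and 82.2 CPM in HJX at 28 °C. The HPS32 groups did not overlap, whereas the HJX groups did. Over all tested genes 74.0% did not overlap in HPS32 and 77.3% in HJX, in either direction. DVR fell 1.55-fold in HPS32 (log2 -0.63 ± 0.08 SE, adjusted p = 9.93e-07). In HJX its log2 fold change was -0.13 with a 95% interval of -0.30 to 0.03 (adjusted p = 0.138). The HPS32 call was lost with total-count scaling (log2 -0.07, adjusted p = 0.444), which turned the HJX value to 0.17. Without HJX 28 °C library 3, DVR was also called lower in HJX (log2 -0.21, adjusted p = 0.0275).

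PORA and PORB reduce protochlorophyllide in a step that needs light. PORA had 882, 605 and 782 CPM in HPS32 heat against 1818, 2071 and 2067 CPM in HPS32 at 28 °C, and 162, 346 and 150 CPM in HJX heat against 1675, 1761 and 1461 CPM in HJX at 28 °C. It fell 2.62-fold in HPS32 (log2 -1.39 ± 0.30 SE, adjusted p = 0.00287) and 7.44-fold in HJX (log2 -2.90 ± 0.32 SE, adjusted p = 3.02e-05). PORA varied most of the 10 genes under heat, with a coefficient of variation of 18.5% in HPS32 heat and 49.9% in HJX heat, where library 2 stood above the others. PORB had 179, 163 and 195 CPM in HPS32 heat against 1004, 1016 and 979 CPM in HPS32 at 28 °C, and 78.1, 108 and 74.1 CPM in HJX heat against 1063, 968 and 818 CPM in HJX at 28 °C. It fell 5.58-fold in HPS32 (log2 -2.48 ± 0.13 SE, adjusted p = 1.07e-10) and by 3.45 on the log2 scale in HJX (SE 0.14, adjusted p = 2.03e-12). For both genes every heat library was below every 28 °C library of its line, and every HPS32 heat library was above every HJX heat library. Of all tested genes, 74.0% in HPS32 and 77.3% in HJX did not overlap between temperatures, in either direction. Between the lines under heat 58.2% did not overlap, 28.5% with HPS32 higher. The labels and notes do not say how reads that match both genes were counted, so values of these related genes are uncertain to that extent.

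YGL1 adds the phytol tail, and its loss gives yellow-green leaves in rice. It had 48.2, 45.8 and 42.5 CPM in HPS32 heat against 117, 132 and 145 CPM in HPS32 at 28 °C, and 24.9, 29.2 and 22.8 CPM in HJX heat against 124, 129 and 119 CPM in HJX at 28 °C. It fell 2.89-fold in HPS32 (log2 -1.53 ± 0.09 SE, adjusted p = 1.75e-11) and 4.86-fold in HJX (log2 -2.28 ± 0.10 SE, adjusted p = 5.01e-14). CAO1 makes chlorophyll b. It had 184, 187 and 186 CPM in HPS32 heat against 628, 657 and 627 CPM in HPS32 at 28 °C, and 202, 215 and 193 CPM in HJX heat against 678, 621 and 530 CPM in HJX at 28 °C. CAO1 fell 3.43-fold in HPS32 (log2 -1.78 ± 0.09 SE, adjusted p = 6.59e-13) and by 1.59 on the log2 scale in HJX (SE 0.09, adjusted p = 2.21e-12). No library of a heat group overlapped with the 28 °C group of its line for either gene. The shares over all tested genes were 74.0% in HPS32 and 77.3% in HJX, in either direction.

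Whether the lines responded differently was tested as the log2 response of HPS32 minus that of HJX. Of the 10 genes, 7 had a smaller fall in HPS32 than in HJX and 1, DVR, had a more negative response, where 13.3% of all tested genes were called with a positive difference, 16% with a negative one and 29.3% in either direction. The median difference of the 10 was 0.76, against 0.02 over all tested genes. With total-count scaling the median of all genes was 0.28. It split the calls into 6581 positive and 1900 negative, against 3393 positive and 4080 negative with TMM; of the 10 genes it called 7 positive and 0 negative. The difference was 0.78 ± 0.14 for CHLI (adjusted p = 0.000313), 0.82 ± 0.12 for CHLD (adjusted p = 4.04e-05), 1.02 ± 0.19 for CRD1 (adjusted p = 0.000949), 0.97 ± 0.18 for PORB (adjusted p = 0.000834) and 0.75 ± 0.13 for YGL1 (adjusted p = 0.00024), each with its SE. These 5 kept their calls without any one of the 12 libraries. They stand for the motor subunits of magnesium chelatase, the cyclase, a protochlorophyllide oxidoreductase and chlorophyll synthase.

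The largest difference, 1.5 ± 0.43 SE for PORA (adjusted p = 0.0286), was less secure. It was lost in 8 of the 12 fits that left out a library (adjusted p 0.0554 to 0.0636 in those 8) and with the replicate number as a block (adjusted p = 0.0574), whereas without HJX heat library 2 it was 2.0 and called. UROD differed by 0.27 ± 0.10 SE (adjusted p = 0.0499), a call lost in 9 of the 12 such fits (adjusted p 0.0558 to 0.126) and with no filter on low counts (adjusted p = 0.0717). DVR had the opposite sign, -0.49 ± 0.11 SE (adjusted p = 0.00279), and its call was lost with total-count scaling (-0.23, adjusted p = 0.108). CHLH and CAO1 did not pass the test, at -0.22 with a 95% interval of -0.51 to 0.07 for CHLH and -0.19 with an interval of -0.44 to 0.05 for CAO1, and total-count scaling gave 0.04 and 0.07 for them.

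**Figure D2:**
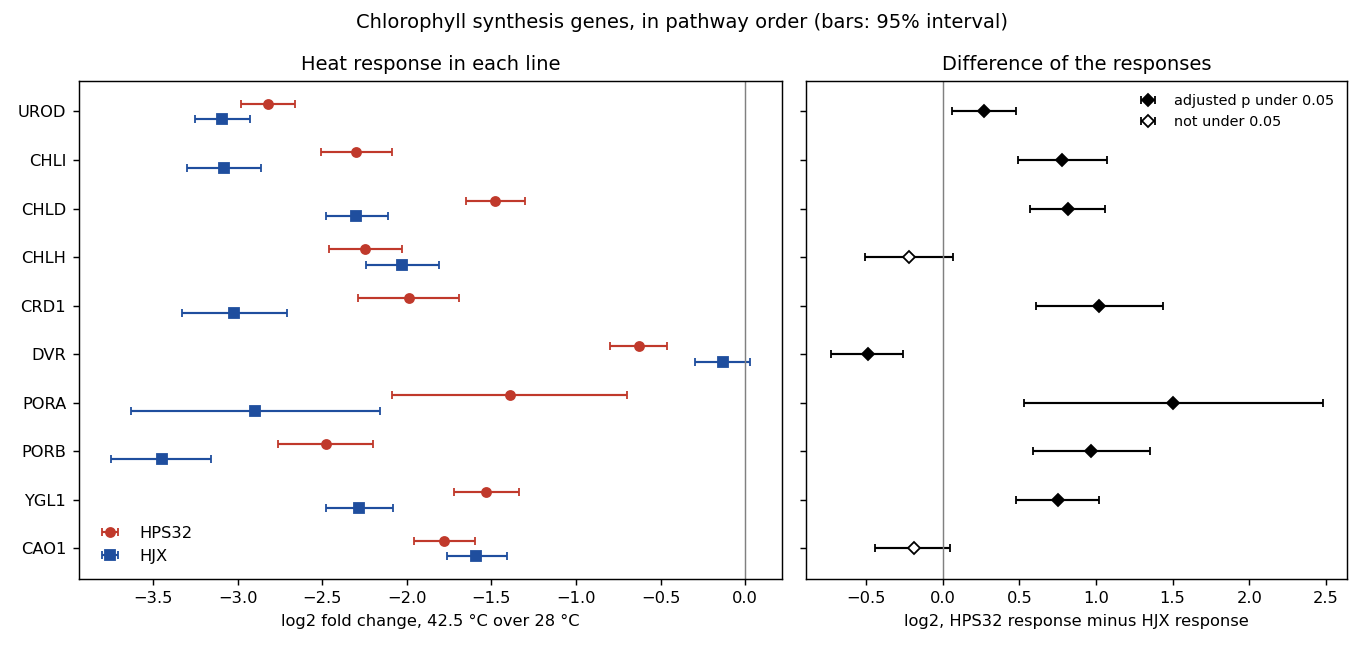
Left, log2 fold change of each gene at 42.5 °C over 28 °C in HPS32 (circles) and HJX (squares), with 95% intervals; right, the HPS32 response minus the HJX response, filled where the adjusted p was under 0.05. The responses of HJX reach -3.45 for PORB, and on the right DVR lies below 0 at -0.49 while PORA lies farthest above it at 1.5.

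The lines were also set against each other under heat. These values use the same heat libraries as the responses above, so they are not a separate line of evidence. Under heat 7 of the 10 genes were higher in HPS32 than in HJX, where 21.6% of all tested genes were called higher, 23.6% lower and 45.2% in either direction. With total-count scaling the median of all genes was 0.28, against 0.03 with TMM. It split the calls into 9862 higher and 3092 lower, against 5506 higher and 6001 lower with TMM, and it called 7 of the 10 higher and 0 lower. PORA was 3.45-fold higher (log2 1.79 ± 0.31 SE, adjusted p = 0.00144), CRD1 2.24-fold (1.16 ± 0.14 SE, adjusted p = 5.77e-06) and PORB 2.06-fold (1.05 ± 0.13 SE, adjusted p = 8.12e-06). CHLI was 1.90-fold higher, CHLD 1.89-fold, YGL1 1.78-fold and UROD 1.39-fold, with adjusted p between 5.81e-08 for CHLD and 2.93e-05 for UROD. DVR was lower in HPS32 (log2 -0.32 ± 0.08 SE, adjusted p = 0.00308), a call lost with total-count scaling (-0.06, adjusted p = 0.538).

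CHLH and CAO1 did not pass the test between the lines under heat. The 3 HPS32 heat libraries of each lay below the 3 HJX heat libraries, where 58.2% of all tested genes did not overlap in either direction. CHLH had a log2 fold change of -0.24 ± 0.10 SE (adjusted p = 0.0543). It was called with limma-voom (adjusted p = 0.0288), with only the compared groups (adjusted p = 0.00751) and with no filter on low counts (adjusted p = 0.0365). The same held without HJX 28 °C library 1, HJX 28 °C library 3 or HPS32 heat library 3 (adjusted p 0.0338, 0.0188 and 0.0451). CHLH was also called with the replicate block (adjusted p = 0.0161). That block numbers only the 28 °C libraries and codes all heat libraries alike. It thus pairs no heat libraries and left the value at -0.24. CAO1 had -0.13 with a 95% interval of -0.30 to 0.05 (adjusted p = 0.227). With total-count scaling their values were 0.02 for CHLH and 0.13 for CAO1.

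The lines were set against each other at 28 °C as well. At 28 °C none of the 10 genes was called between HPS32 and HJX by edgeR, where 0.0864% of all tested genes were called in either direction. At an unadjusted p under 0.05 there were 2, UROD and DVR, and DESeq2 and limma-voom also called 0 of the 10. The log2 fold changes, HPS32 over HJX, were 0.20 for UROD (adjusted p = 0.591), 0.28 for PORA with a 95% interval of -0.40 to 0.96 (adjusted p = 0.930) and -0.02 for CHLH (adjusted p = 0.994), with a median of 0.12 over the 10. The libraries of the lines did not overlap at 28 °C for UROD, CHLD, DVR and PORA, 4 of the 10, with HPS32 higher in each. Of all tested genes 10.3% did not overlap in either direction, and 5.59% did so with HPS32 higher. For CHLD the gap was narrow, with a lowest HPS32 library of 179.6 CPM against a highest HJX library of 179.4 CPM.

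Ratios of the CPM/kb levels show how the members moved against each other. For each ratio 4 comparisons of 3 against 3 libraries were made with a two-sided exact permutation test, 16 in all, whose smallest possible p is 0.1, so none could pass a threshold of 0.05. PORA to PORB was 10.6, 7.94 and 8.57 in HPS32 heat against 3.88, 4.36 and 4.52 in HPS32 at 28 °C. It was 4.45, 6.83 and 4.35 in HJX heat against 3.37, 3.89 and 3.82 in HJX at 28 °C. In both lines all heat libraries were above all 28 °C libraries, and HPS32 heat was above HJX heat (exact p = 0.1 in each, adjusted 0.178).

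The subunits of magnesium chelatase were compared in the same way. CHLI to CHLH was 0.629, 0.669 and 0.634 in HPS32 heat against 0.609, 0.656 and 0.744 in HPS32 at 28 °C, which overlapped (exact permutation p = 0.7). It was 0.295, 0.315 and 0.251 in HJX heat against 0.579, 0.590 and 0.619 in HJX at 28 °C, which did not overlap (exact permutation p = 0.1). CHLD to CHLH averaged 0.283 ± 0.0145 in HPS32 heat and 0.167 ± 0.0149 in HPS32 at 28 °C without overlap (exact permutation p = 0.1), and 0.126 ± 0.0129 in HJX heat and 0.154 ± 0.0194 in HJX at 28 °C with overlap (exact permutation p = 0.2; SD, n = 3 each). For both ratios every HPS32 heat library was above every HJX heat library, by 2.25-fold in the means of each. CAO1 to YGL1 averaged 2.67 ± 0.185 in HPS32 heat and 3.19 ± 0.347 in HPS32 at 28 °C with overlap (exact permutation p = 0.2), and 5.20 ± 0.378 in HJX heat and 3.20 ± 0.338 in HJX at 28 °C without overlap (exact permutation p = 0.1; SD, n = 3 each). At 28 °C the libraries of the lines overlapped for each of the 4 ratios.

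**Figure D3:**
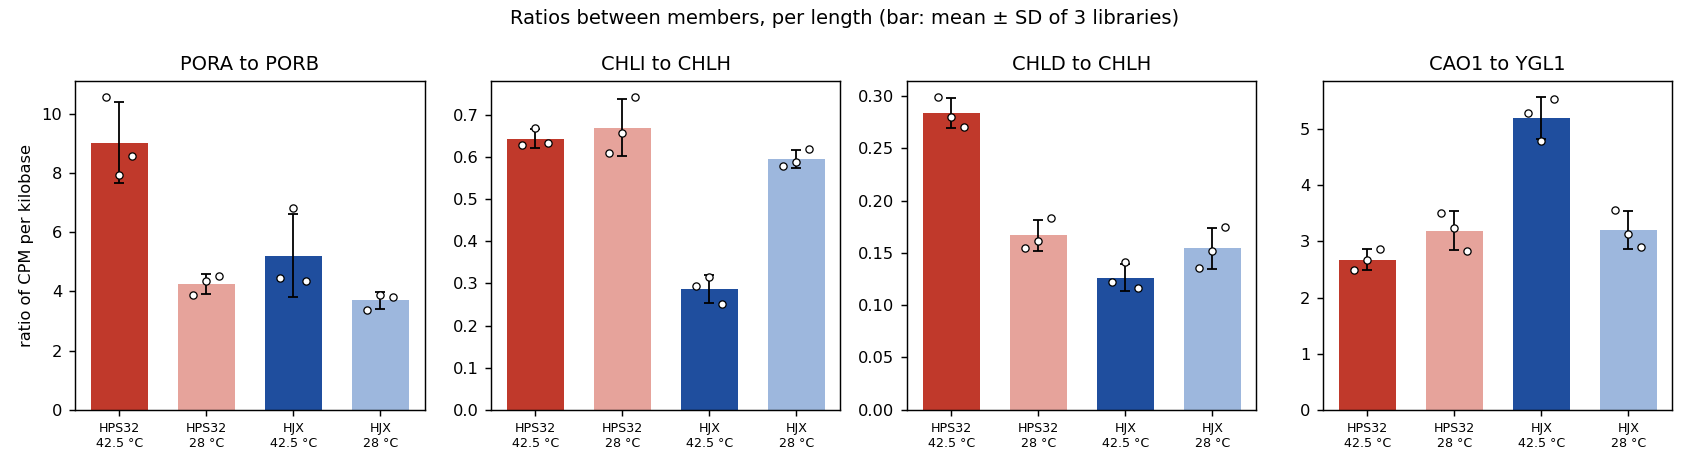
Ratio of CPM/kb between pairs of members in each group, with bars at the mean, error bars of 1 SD and one point per library. The bar of HJX heat stands apart from HJX at 28 °C for CHLI to CHLH, at 0.287 against 0.596, and for CAO1 to YGL1, at 5.20 against 3.20.

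The rest of the pathway was counted over 23 other genes of tetrapyrrole synthesis, heme metabolism and their GLK regulators, of which 21 could be tested. In HPS32, 5 rose and 16 fell, with a median of -0.77, where 70.4% of all tested genes were called and 36.4% were called lower. Total-count scaling gave 5 higher and 12 lower in HPS32, ending the calls of HEMB, HEMD and HY2, enzymes of porphobilinogen, uroporphyrinogen and phytochromobilin synthesis, and of Os03g0340001. In HJX, 5 rose, 15 fell and 1 was not called, with a median of -0.86, where 74.9% of all tested genes were called and 36.8% were called lower. The 5 were in each line CAO2, the ferrochelatase Os09g0297000, the heme oxygenase Os03g0395000, and 2 entries with the CobN and magnesium chelatase domain. These 2 are Os07g0656500 and a transcript without a rice gene identifier, whose description names the CHLH subunit. The gene not called in HJX was Os03g0340001, with a uroporphyrinogen decarboxylase domain, at log2 -0.38 in HPS32 and -0.22 in HJX (adjusted p = 0.00751 and 0.108); total-count scaling gave 0.18 in HPS32 and 0.08 in HJX, and the HPS32 call was lost without HPS32 28 °C library 1 (adjusted p = 0.0513). The median of the 10 chlorophyll synthesis genes was -1.89 in HPS32 and -2.60 in HJX. In HPS32 the largest fall was that of HEMA1, the glutamyl-tRNA reductase that opens the pathway (log2 -1.88 ± 0.12 SE, adjusted p = 1.04e-09). In HJX it was that of GUN4, a porphyrin-binding activator of magnesium chelatase (log2 -2.73 ± 0.19 SE, adjusted p = 3.79e-07). The largest rise in each line was that of the transcript without a gene identifier, on chromosome 7 (27626668 to 27627880). It rose by 2.63 ± 0.52 SE in HPS32 (adjusted p = 0.000166) and 2.82 ± 0.53 SE in HJX (adjusted p = 9.39e-05). It had 167 reads over the 12 libraries. This transcript begins directly after the end of Os07g0656500 (27623979 to 27626667), on the opposite strand. Whether the 2 entries are separate genes was not tested.

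Under heat 10 of the 21 were higher in HPS32 than in HJX, 3 were lower and 8 were not called, with a median of 0.15, where 21.6% of all tested genes were called higher, 23.6% lower and 45.2% in either direction. Total-count scaling gave 14 higher and 0 lower. The 3 lower were Os09g0297000, SE5 and GLK2. Leaving out a library ended the call of SE5 in 4 of 12 fits (adjusted p 0.0749 to 0.103 in those 4) and that of CAO2, among the 10 higher, also in 4 (adjusted p 0.0620 to 0.199). Both were lost with DESeq2 (adjusted p 0.0993 for SE5 and 0.0584 for CAO2), and SE5 also in edgeR with RLE scaling (adjusted p = 0.0846). The largest difference upward was that of CHLM, the methyltransferase acting after magnesium chelatase (log2 1.38 ± 0.13 SE, adjusted p = 7.59e-07), and downward that of GLK2, a regulator of chloroplast genes (log2 -0.39 ± 0.08 SE, adjusted p = 0.000703). The difference of the responses was called for 9 of the 21, 7 positive and 2 negative, with a median of 0.09, where 29.3% of all tested genes were called, 13.3% positive and 16% negative. Here total-count scaling gave 12 positive and 0 negative. The 7 were CHLM (1.34 ± 0.18 SE, adjusted p = 5.75e-05), GUN4 (1.06 ± 0.26 SE, adjusted p = 0.0127), PPO1, the protoporphyrinogen oxidase (1.05 ± 0.13 SE, adjusted p = 1.23e-05), HEMF, the coproporphyrinogen oxidase (0.59 ± 0.11 SE, adjusted p = 0.000473), HEMA1 (0.57 ± 0.17 SE, adjusted p = 0.0208), the aminotransferase GSA (0.49 ± 0.11 SE, adjusted p = 0.00324) and a heme oxygenase, Os03g0395000 (0.34 ± 0.13 SE, adjusted p = 0.0484), which lies 0.802 Mb from TT2. The 2 negative ones were the heme oxygenase SE5 (-0.32 ± 0.11 SE, adjusted p = 0.0369) and GLK2 (-0.32 ± 0.12 SE, adjusted p = 0.0437). The calls of SE5 and GLK2 were lost with DESeq2, and also in edgeR with RLE scaling (adjusted p = 0.0718 for SE5 and 0.0816 for GLK2). That of Os03g0395000 was lost with limma-voom (adjusted p = 0.0511). Leaving out a library ended the call of HEMA1 in 4 of 12 fits, SE5 and GLK2 in 9 each and Os03g0395000 in 10. Without HJX heat library 1, HJX heat library 3 or HPS32 heat library 1 the count of 9 was 5.

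Some of these genes overlap a neighbour on the opposite strand, and reads of such pairs cannot be told apart without strand. GUN4 overlaps Os11g0267100, which held 1829 reads against 18138 for GUN4. The deposited length of CHLM was 469 bases. CAO2, a second copy of chlorophyllide a oxygenase beside CAO1, had 307 reads over the 12 libraries and overlaps a gene with 246 reads. That neighbour had 127 reads over the HPS32 heat libraries against 26 over the HPS32 28 °C libraries, and 66 against 27 in HJX. Its part in the values of CAO2 was not tested. Named after its values were seen, CAO2 rose by 1.81 ± 0.37 SE in HPS32 (adjusted p = 0.000217) and 1.87 ± 0.43 SE in HJX (adjusted p = 0.000646). At 28 °C edgeR called 0 of the 21 between the lines, with 1 at an unadjusted p under 0.05 and 0 by DESeq2 or limma-voom, where 0.0864% of all tested genes were called.

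**Figure D4:**
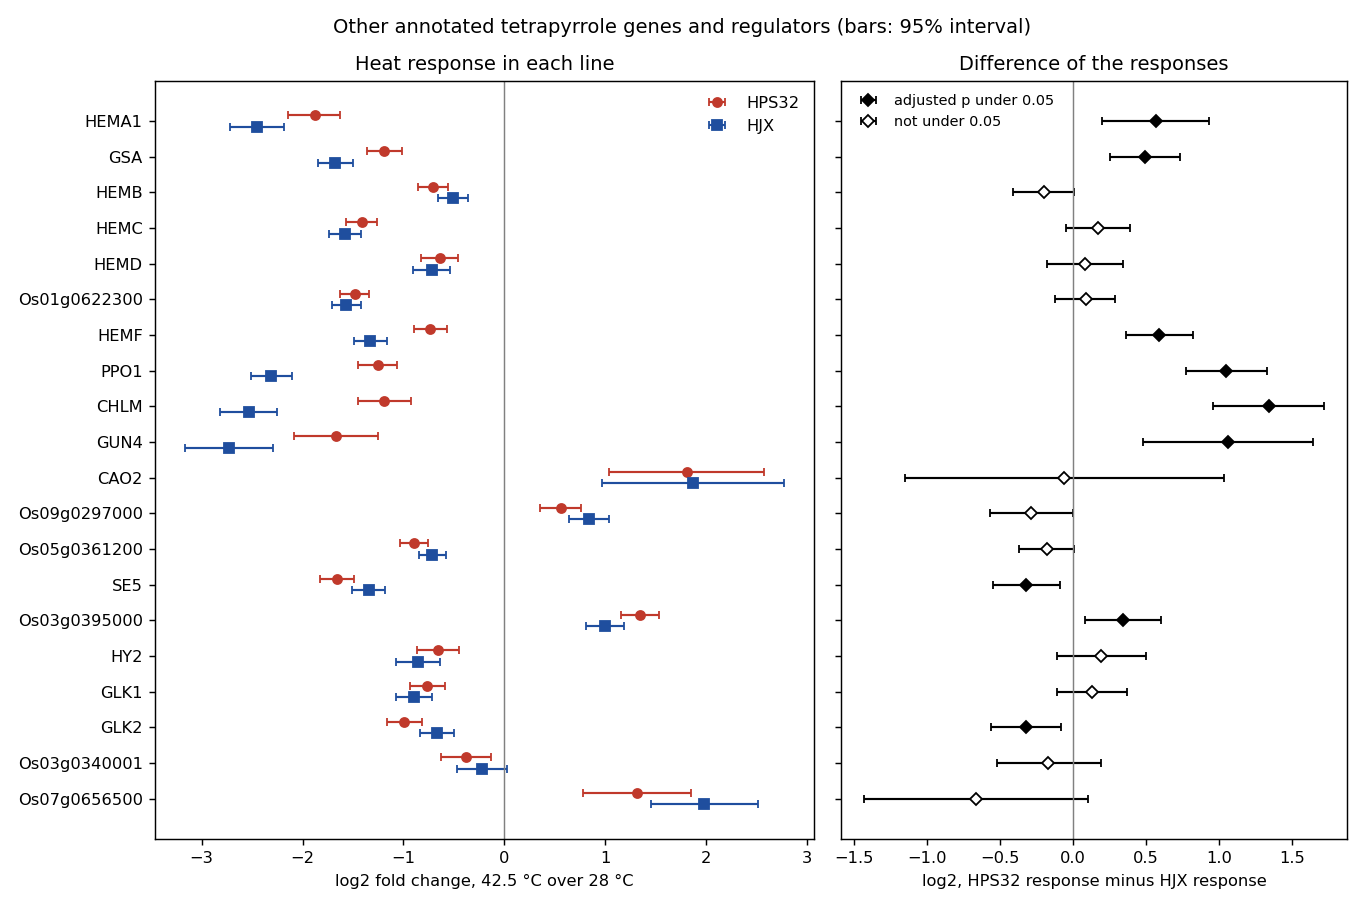
Other annotated tetrapyrrole genes and regulators, with the log2 fold change at 42.5 °C over 28 °C in each line on the left and the HPS32 response minus the HJX response on the right, with 95% intervals. Most points lie left of 0 on the left panel, and CHLM, GUN4 and PPO1 lie farthest right on the right panel, at 1.34, 1.06 and 1.05.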

How the data were processed

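Gene counts of the 12 libraries came from a single deposited table. HISAT2 2.0.5 (alignment), featureCounts 1.5.0-p3 (counting per gene) and DESeq2 1.20.0 are named in the submitters' processing notes. Strandedness, handling of reads that map to several places and the genome build are not given in the sources used here. The raw read counts deposited by the authors were used for all tests and levels. The 12 other columns of per-library values, FPKM, were not used. Those of the heat libraries match no single sample, which also holds for the count columns. Levels between genes and ratios were computed from TMM-scaled CPM and the deposited gene length instead. The authors' own test results were not used. Column numbers of the heat libraries match no replicate number in the titles, so these are called heat library 1 to 3. Nothing says that replicates came from separate plants, so p-values measure only the spread between these samples, which may be technical.

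Tests ran in edgeR 4.0.16 (R 4.3.3): filterByExpr, TMM scaling, 1 robust quasi-likelihood model of all 12 libraries with a mean per group, 5 two-sided contrasts, and Benjamini-Hochberg adjustment over all 25473 tested genes, with a threshold of 0.05. The SE is the log2 fold change divided by the square root of F, and intervals are 95%. CPM are TMM-scaled. limma 3.58.1 (voom) and DESeq2 1.42.0 were alternatives, with RLE and total-count scaling, other filters, only the compared groups, a replicate block at 28 °C and each library left out. The scripts were tested on simulated data.

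The replicate number was checked as a pairing at 28 °C, by correlating deviations from group means between libraries of the lines. Same-numbered libraries correlated at 0.448, 0.120 and 0.422 over 20255 genes averaging at least 1 in log2 CPM. Over all 25473 tested genes these values were 0.289, 0.0756 and 0.275. Differently numbered libraries ran from -0.452 to 0.0783 over the 20255 genes and from -0.297 to 0.0422 over all tested genes. Because of the centring, these values are not independent of the same-numbered ones. Blocked values are given where they change a call. Heat libraries have no usable replicate number and were coded like replicate 1 at 28 °C. Blocked heat responses within a line are thus set against the fitted level of that replicate. For CHLH in HPS32 the log2 response was -2.36 with the block, against -2.25 without it.

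Genes were named by a rule: all 10 members, the largest called rise and fall among the other tetrapyrrole genes in each comparison, and every such gene called for the difference of responses. The list of others held 19 genes by identifier, of which 18 had a fitting description, and 5 more by the wording of their description. The members and lists were chosen with earlier results of these data known. Gene symbols come from general knowledge matched by identifier. No sequence is printed, and promoter motifs were not analysed here.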

Additional observations from a re-analysis of the deposited data

Results flagged for a closer look

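The heat responses of the lines differed by a test of the difference itself (edgeR quasi-likelihood test over 25473 genes, HPS32 response minus HJX response) for 8 of the 10 chlorophyll synthesis genes. Over all tested genes 13.3% were called with a positive difference, 16% with a negative one and 29.3% in either direction. The log2 differences were 1.5 for PORA, 1.02 for CRD1, 0.97 for PORB, 0.82 for CHLD, 0.78 for CHLI, 0.75 for YGL1, 0.27 for UROD and -0.49 for DVR. Of the other tetrapyrrole genes the same test picked out CHLM at 1.34, GUN4 at 1.06, PPO1 at 1.05, HEMF at 0.59, HEMA1 at 0.57, GSA at 0.49, Os03g0395000 at 0.34, and SE5 and GLK2 at -0.32 each. Leaving out a library ended the call of PORA in 8 of 12 fits, UROD in 9 and HEMA1 in 4. It ended those of SE5 and GLK2 in 9 each and that of Os03g0395000 in 10. The call of DVR was lost with total-count scaling. Groups of 3 libraries were not tested for a single outlying library.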

How the results depend on the processing

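The 10 genes were refitted under 20 alternatives (19 for the difference of responses). The number called was 9 to 10 for heat in HPS32, 9 to 10 for heat in HJX, 7 to 9 for the lines under heat, 0 for the lines at 28 °C and 6 to 8 for the difference of responses. Their values stayed on the same side of the threshold, in the same direction, in 199 of 200 for heat in HPS32, 198 of 200 for heat in HJX, 190 of 200 for the lines under heat, 195 of 200 at 28 °C and 168 of 190 for the difference. Over all genes at 28 °C the calls numbered 22, against 49 with DESeq2, 12 with only the compared groups, 66 with the replicate block and 8 to 26 when a library was left out. The block changed no call of the 10 genes beyond CHLH and PORA. It coded heat libraries like replicate 1, so its heat responses within a line were set against the 28 °C level of replicate 1. Other tetrapyrrole genes called for the difference numbered 5 to 8 when a library was left out, against 9. Total-count scaling turned the sign of DVR for heat in HJX (0.17), of CHLH (0.02), CAO1 (0.13) and SE5 (0.04) for the lines under heat, of CHLH (0.04) and CAO1 (0.07) for the difference, and of Os03g0340001 for heat in HPS32 (0.18) and HJX (0.08). At 28 °C, with a library left out, CHLH ran between -0.13 and 0.07, PORB between -0.02 and 0.16 and CAO1 between -0.03 and 0.15; the sign turned for CHLH without HJX library 1 (0.07), HJX library 2 (0.01) or HPS32 library 3 (0.03), and for PORB and CAO1 without HJX library 3. The cause of these changes was not tested. Deposited FPKM as an alternative for levels and promoter motifs were not run. Ratios and summed levels were also computed with each library left out, an alternative chosen after seeing the data; with 3 libraries this cannot move a mean by over 1 SD, so it says nothing about their stability. Ratios rest on 3 libraries a group, which cannot reach a p under 0.1.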

Other observations

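Over the 12 libraries and 7544 genes averaging at least 5 in log2 CPM, the 3 genes whose log2 CPM followed PORA most closely (Pearson's r, a description, since all points share their libraries and groups) were Os02g0255801, with a tetratricopeptide repeat (0.996), the peroxidase gene Os03g0339300 (0.995) and the chaperonin gene Os12g0277500 (0.995). Os03g0339300 averaged 52.3 ± 8.96 CPM in HPS32 heat and 181 ± 7.97 CPM in HPS32 at 28 °C, against 11.5 ± 7.13 CPM in HJX heat and 143 ± 19.6 CPM in HJX at 28 °C (SD, n = 3 each). Among the other chlorophyll synthesis genes r with PORA was highest for CHLD (0.968) and lowest for DVR (0.429), with 0.793 for CHLH and 0.812 for CAO1. Among the 7544 genes these other members ranked from 219 (CHLD) to 3508 (DVR), so many genes outside the pathway followed PORA more closely.

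Individual libraries ran through the members together. HJX heat library 2 was the highest of its group for 9 of the 10 genes, all except DVR, where 35.9% of all tested genes were highest in that library. HJX 28 °C library 3 was the lowest of its group for 10 of the 10, where 35.3% of all tested genes were lowest there.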
